A study of Mus musculus with 7 samples.

Results

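The genes examined here were the 4 myogenic regulatory factor genes of the mouse, Myod1, Myf5, Myf6 and Myog, out of 21938 protein-coding genes in the GENCODE M21 annotation of mm10. The genes were taken by name, and every peak from 100 kb upstream to 50 kb downstream of each gene was collected. Myf5 and Myf6 are neighbours on the same strand and share one locus, so there were 3 loci. These held 75 merged ATAC regions out of 122720 in the genome.

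Myogenic regulatory factors are basic helix-loop-helix transcription factors that pair with E-proteins and bind E-boxes, short DNA sites with the letters CANNTG. In muscle stem cells (MuSCs), the Pax7-positive cells that rebuild muscle, Myf5 and Myod1 are the determination factors, and their genes are kept accessible in quiescence and used early in activation. Myog drives terminal differentiation, and Myf6 (MRF4) is known as the factor of differentiating cells and mature fibres.

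The study asked how loss of TRF2, the telomere protein encoded by Terf2, changes MuSCs and whether TRF2 also sits away from telomeres. ATAC-seq, which reads open chromatin by transposase insertion, was done on MuSCs sorted from uninjured hind limb, with 2 libraries titled Control and 2 titled TRF2KO (0 hr). The study's knockout joins a floxed TRF2 allele with a tamoxifen-inducible Cre driven by Pax7, on a C57BL/6 background with tamoxifen begun in young adult mice, so the deletion is limited to Pax7-expressing cells. The genotype field of all 4 ATAC libraries reads Wildtype, and the groups rest on the titles. Whether the Control animals carried Cre or received tamoxifen is not given in the labels. CUT&Tag, which maps a bound protein by tethering the transposase to an antibody, was done with 2 TRF2 libraries and 1 IgG library from Wildtype MuSCs of tibialis anterior muscle 3 days after injection of notexin, a snake toxin that destroys fibres. For that assay the study's methods name control mice with a Pax7 Cre and a floxed tdTomato reporter. They also give a shorter time after injury and a second muscle. Binding and accessibility therefore came from cells in different states, and TRF2 binding was not measured in the TRF2KO cells. Nothing in the labels ties libraries to separate animals, so p-values measure the spread between libraries.

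MACS lists held 84102 to 100521 peaks in the ATAC libraries, 12290 and 15479 in the TRF2 libraries and 656 in the IgG library. A MACS fold is the number of fragments at the peak summit over the background, each plus 1, and fragment numbers at summits were recovered from it. The ATAC background was 3.35 to 4.56 fragments, highest in Control 2, and the median CUT&Tag peak rested on 9 fragments. The start-site region of Terf2, the targeted gene, had folds of 54.3 and 48.4 in Control and 21.5 and 18.6 in TRF2KO (log2 difference -1.21 ± 0.11, limma adjusted p = 8.6e-13), which went with the titles; whether it overlaps the deleted exons is not given in the sources used here. All 9 MuSC marker genes examined, Pax7 and Cdh15 among them, had an open start-site region in all 4 libraries, with mean Control folds of 21.6 to 180.0. Of the markers of other cells, the blood genes Ptprc and Itgam had no ATAC region, 3 of 4 endothelial genes had one in all 4 libraries with mean Control folds of at most 6.22, and the highest folds were at Mylpf of muscle fibres (179.8) and Dpt of fibroblasts (110.1). Cd68 of macrophages had 8.05 and 7.38 in Control and 4.57 and 4.54 in TRF2KO (-0.61 ± 0.24, adjusted p = 0.046; -0.62 and 0.073 with quantile normalisation, explained below), and Mylpf stood at 0.30 ± 0.06 (0.00016) and at -0.02 with quantile normalisation (0.84). The part of other cells in the results below was not tested.

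The sequences under the TRF2 peaks show what kind of DNA the CUT&Tag signal covered at these genes, and are printed from RefSeq GRCm38.p6 along the strand of the gene. Capitals mark an E-box (CANNTG), the AP-1 motif TGANTCA or the MEF3 motif TCAGGTTT; both strands were searched. The first 3 are the bases shared by the peaks of both TRF2 libraries, and the fourth is the stretch before the Myod1 start in the replicate 1 peak.
Myod1, 34.8 kb upstream (chr7:46341553-46341835, + strand): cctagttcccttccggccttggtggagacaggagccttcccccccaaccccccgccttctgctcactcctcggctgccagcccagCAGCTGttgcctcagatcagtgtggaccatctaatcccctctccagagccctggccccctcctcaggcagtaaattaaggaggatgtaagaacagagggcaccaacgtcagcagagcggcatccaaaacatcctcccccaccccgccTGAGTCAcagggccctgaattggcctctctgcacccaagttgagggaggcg
Myod1, 55.1 kb upstream (chr7:46321360-46321579, + strand): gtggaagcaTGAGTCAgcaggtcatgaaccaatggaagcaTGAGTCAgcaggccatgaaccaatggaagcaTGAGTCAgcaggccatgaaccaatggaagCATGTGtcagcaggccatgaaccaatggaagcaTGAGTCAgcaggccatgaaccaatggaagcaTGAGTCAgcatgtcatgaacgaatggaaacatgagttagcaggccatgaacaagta
Myf6, within the gene (chr10:107493653-107493893, - strand): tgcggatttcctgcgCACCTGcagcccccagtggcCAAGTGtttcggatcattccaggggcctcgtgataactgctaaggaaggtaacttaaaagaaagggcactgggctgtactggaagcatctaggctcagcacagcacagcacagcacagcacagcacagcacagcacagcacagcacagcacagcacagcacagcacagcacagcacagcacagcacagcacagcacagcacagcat
Myod1, at the start (chr7:46376203-46376473, + strand): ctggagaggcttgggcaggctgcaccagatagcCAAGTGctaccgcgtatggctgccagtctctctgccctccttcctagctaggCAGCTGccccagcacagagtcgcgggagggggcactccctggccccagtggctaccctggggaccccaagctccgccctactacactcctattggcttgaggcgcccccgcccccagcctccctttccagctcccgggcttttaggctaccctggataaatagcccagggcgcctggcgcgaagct
The element 34.8 kb upstream is mixed sequence with 1 CAGCTG E-box and 1 AP-1 motif. The element 55.1 kb upstream is a tandem repeat with a period of 31 bases, in which 98 of 100 bases equalled the base 31 before, and its 5 AP-1 motifs are copies of one unit. The Myf6 element ends in a 5-base repeat that matched over 100 of 100 bases. By the same rule (at least 85 matches in some window of 100 bases, periods of 2 to 60), 6.04% of the 7414 TRF2 regions of both libraries and 49.1% of the 656 IgG peaks held a tandem repeat. At these loci it was 2 of 3 TRF2 regions. No IgG peak lay in any of the 3 windows.

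TRF2 CUT&Tag signal at the 4 genes was sparse. The TRF2 libraries had 5 and 8 peaks in the 3 windows together, and a TRF2 region, defined as merged peaks with a peak in both libraries, was found 3 times: at 34.8 and 55.1 kb upstream of Myod1 and within Myf6. At 34.8 kb upstream of Myod1 the peaks had folds of 5.58 and 7.49, from 11 and 15 fragments. Within Myf6, the folds were 8.18 and 7.41, from 13 and 10 fragments. At the repeat 55.1 kb upstream of Myod1, they were 3.47 and 7.52, from 4 and 9 fragments. Peaks of 4 to 15 fragments are shallow, and the strict threshold of a -log10 q of at least 5 in both libraries left 1 of the 3 regions, the one within Myf6.

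At the Myod1 start itself, replicate 1 had a peak centred 12 bases after the start (fold 5.91, 13 fragments) that replicate 2 lacked. Replicate 2 instead had a peak 3.88 kb after the start, beyond the end of the gene (fold 4.66, 10 fragments), in the same ATAC region. The nearest bases of these peaks were 3660 bases apart, so the Myod1 promoter had no TRF2 region of both libraries. Replicate 2 alone also had peaks 38.8 and 26.1 kb upstream of Myod1, and at Myog 44.6 kb upstream and 42.9 kb downstream of the start. Replicate 1 alone had a peak 48.2 kb downstream of the Myf5 start, which overlapped no ATAC region; the other 12 of the 13 peaks of these libraries overlapped one. Myog thus had TRF2 peaks in a single library only, with folds of 4.21 and 5.55.

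Within 3 kb of the start, Myf6 was the 1 gene of 4 with a TRF2 region of both libraries; over all coding genes it was 23.3%. Among the 18 distal ATAC regions that all 4 ATAC libraries shared at the 3 loci, 2 held a TRF2 region, against 3.77% of distal shared regions in the genome. Both were at Myod1, and 1 of them was the tandem repeat.

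**Figure D1:**
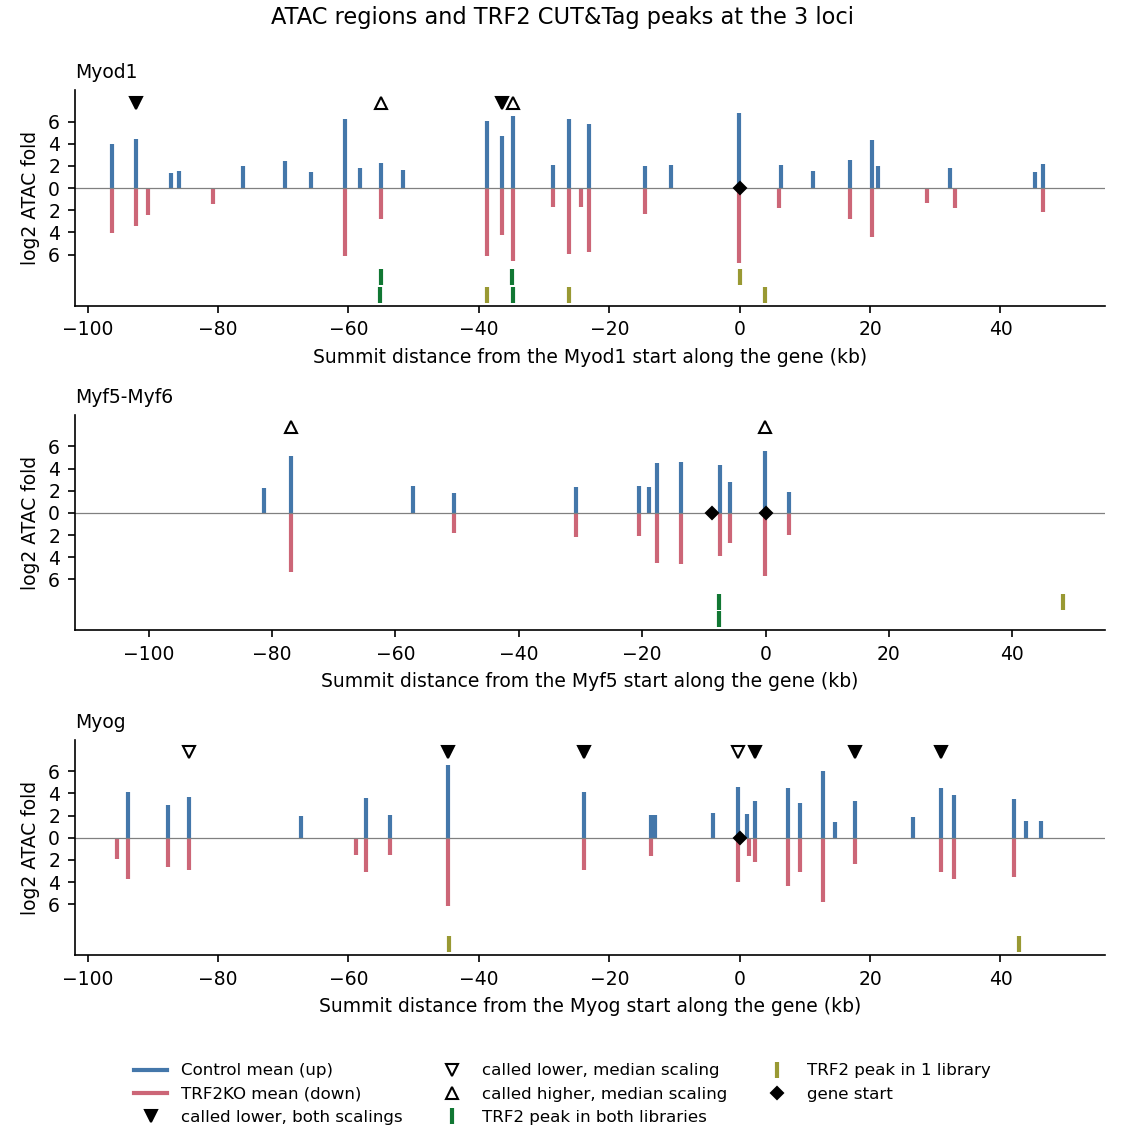
Merged ATAC regions by summit distance from the gene start (kb, along the gene), with mean log2 fold of the libraries that had a peak drawn upward for Control and downward for TRF2KO. Ticks at the bottom are TRF2 CUT&Tag peaks (upper row replicate 1, lower row replicate 2) and triangles mark regions called lower or higher in TRF2KO; the Myog panel has 7 downward triangles, while the Myod1 panel has 2 downward and 2 upward and the Myf5-Myf6 panel 2 upward ones.

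The promoters of the 4 genes were open to very different degrees. An ATAC region of all 4 libraries lay within 3 kb of the start of each of them, as it did for 62.5% of coding genes. At Myod1 (chr7:46375332-46381050, covering the whole gene) the fold was 121 in Control 1, 102 in Control 2, 110.5 in TRF2KO 1 and 100.1 in TRF2KO 2, with 440 to 568 fragments at the summit. Among 13704 coding genes with such a region, 81.8 to 88.4% had a lower fold than Myod1 in the same library. The summit of Control 1 lay 0.098 kb before the start, and the Control and TRF2KO folds overlapped.

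At Myf5 (chr10:107483867-107489556, from within the gene to upstream of it) the folds were 52.0, 43.9, 53.5 and 50.4 in the same order of libraries. They stood near the middle of coding genes, with 52.0 to 54.4% lower, and the groups overlapped.

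At Myog (chr1:134289433-134290773, over the start) the folds were 26.7 and 20.9 in Control and 18.8 and 13.8 in TRF2KO. Both TRF2KO libraries were below both Control libraries, and the share of coding genes with a lower fold went from 30.8 and 26.9% to 22.0 and 17.6%.

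At Myf6 the start itself was not covered. The nearest region (chr10:107493050-107494205) began 532 bases downstream of it, inside the gene, and had folds of 22.1 and 17.1 in Control and 16.7 and 12.5 in TRF2KO. The groups did not overlap, though Control 2 and TRF2KO 1 nearly met. This is the region with the TRF2 peaks, whose summits lay 0.993 and 1.04 kb after the Myf6 start.

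The order Myod1, Myf5, Myog, Myf6 held in each of the 4 libraries, but the ranges of Myog (13.8 to 26.7) and Myf6 (12.5 to 22.1) overlapped across libraries, although Myog was above Myf6 within each library. The ranges of Myod1 and Myf5, and of Myf5 and Myog, did not overlap.

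**Figure D2:**
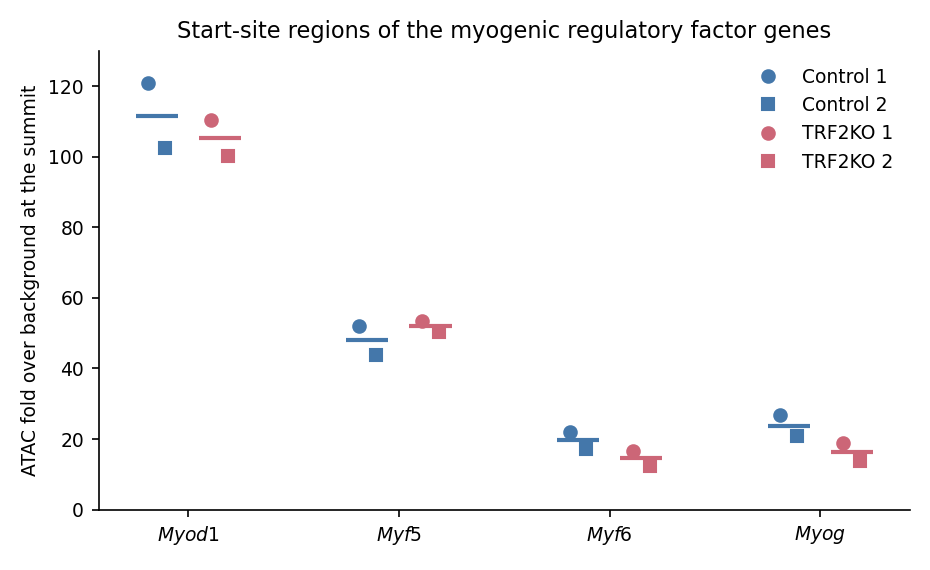
ATAC fold over background at the summit of the start-site region (y axis, linear from 0) of each gene in each library, with bars at the mean of the 2 libraries of a group. Myod1 lies at 100.1 to 121, Myf5 at 43.9 to 53.5, and Myf6 and Myog at 12.5 to 26.7 with TRF2KO points below Control points.

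Promoter sequence differed as well, in the 250 bases before each start (GENCODE start sites, GRCm38). Myog is shown because its start-site region was called lower in TRF2KO with median centring, a weak call described below.
Myog (chr1:134289739-134289988, + strand): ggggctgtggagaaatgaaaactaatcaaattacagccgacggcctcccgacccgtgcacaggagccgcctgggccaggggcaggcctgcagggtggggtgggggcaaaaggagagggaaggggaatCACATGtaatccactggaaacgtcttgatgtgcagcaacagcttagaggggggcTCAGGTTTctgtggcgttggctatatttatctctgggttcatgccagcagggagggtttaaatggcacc
It holds 1 E-box and, 69 bases before the start, 1 MEF3 motif, a letter match found in 1.16% of the 21938 coding promoters; at least 1 E-box was in 64.1%. The Myod1 promoter has 2 E-boxes, 1 of them CAGCTG (12.3% of promoters hold that one), and the highest GC content of the 4 (65.6%). Myf5 has none in this window, and Myf6, the most AT-rich (43.2% GC), has 1 E-box, a MEF2-type motif and an overlapping TATAAA, which were in 2.68 and 11.5% of promoters. The Myog sequence had 0 matches to the MEF2 pattern searched, and looser forms of that motif were not counted. All of these are matches of letters and say nothing of which factor was bound.

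The comparison of TRF2KO with Control asked which open elements in the windows around these genes changed when TRF2 was lost. An element is named by the gene whose window holds it, also where it lies in a neighbouring gene. Whether any element acts on the gene it is named by was not tested. It was made with limma on the log2 folds of the 61610 regions with a peak in all 4 libraries, centred on each library's median. Of these, 7.48% were called lower and 18.5% higher in TRF2KO at an adjusted p under 0.05. Strong regions carried much of the rise: the median difference went from 0.07 in the weakest eighth of regions to 0.26 in the strongest, and the median over all regions was 0.10. Quantile normalisation gives all 4 libraries the same distribution of folds. With it, 7.32% were lower and 4.94% higher and the overall median was 0.02. The trend by strength was not measured after it. Both scalings are therefore given for each call. An adjusted p marked quantile comes from the second, and those given for a library left out come from the first.

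Accessibility around Myog was lower in TRF2KO at several elements. At Myod1 fewer elements were lower, and at Myf5-Myf6 none was called lower under either scaling. Of the 32 shared regions at the 3 loci, 9 were called lower and 4 higher, with a median difference of 0.06. At Myog 7 of 14 were lower and none was higher (0 also at an unadjusted p under 0.05), and the median was -0.29. At Myod1 2 of 12 were lower and 2 higher, and at Myf5-Myf6 0 of 6 were lower (0 at an unadjusted p under 0.05) and 2 higher. With quantile normalisation 10 of the 32 were lower and 0 higher (1 at an unadjusted p under 0.05), 6 of them at Myog and 4 at Myod1. The difference between the loci was not tested, since no test across regions of a locus was made.

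**Figure D3:**
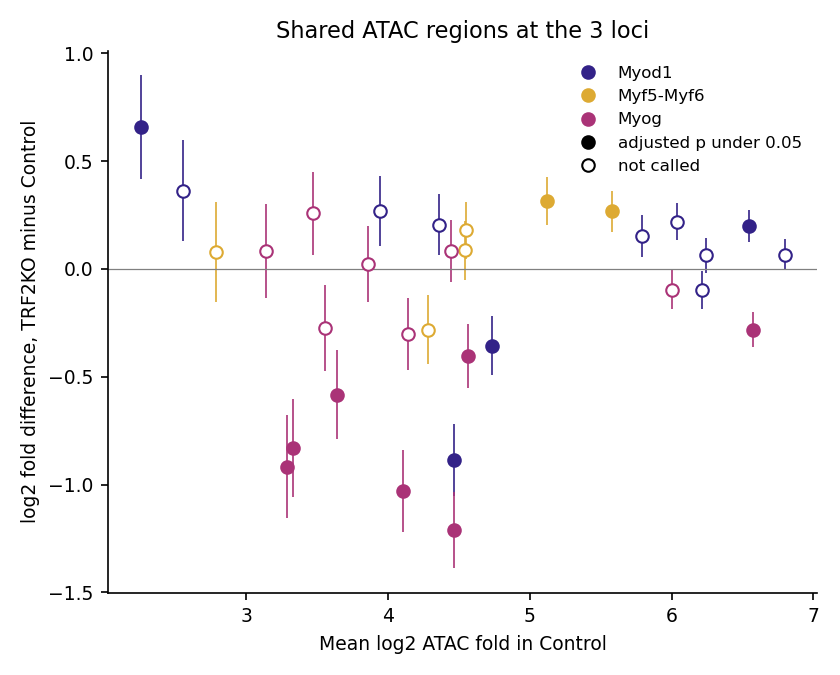
Difference in log2 ATAC fold between TRF2KO and Control (y axis, with standard error) against the mean log2 fold in Control (x axis) for the 32 shared regions, coloured by locus, filled where the adjusted p was under 0.05. Of the 14 Myog points 7 are filled and all of these are below 0; the Myod1 and Myf5-Myf6 points with a mean log2 Control fold above 5 lie between -0.10 and 0.31.

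The largest fall at any of the loci was 31.0 kb downstream of the Myog start, in the neighbouring gene Ppfia4 with its summit in an intron (chr1:134320365-134321534). Its folds were 25.1 and 19.4 in Control and 9.61 and 7.72 in TRF2KO, that is 108 and 107 fragments against 41 and 33. Each TRF2KO value lay far below each Control value, and the log2 difference was -1.21 ± 0.18 (adjusted p = 3.1e-07; with quantile normalisation -1.22, adjusted p = 3.1e-05).

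A second element, in intergenic sequence 23.9 kb upstream of Myog (chr1:134265850-134266232), had folds of 17.5 and 16.9 in Control and 8.23 and 7.04 in TRF2KO. The groups were far apart, at -1.03 ± 0.19 on the log2 scale (adjusted p = 3.3e-05; quantile adjusted p = 0.00049).

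The strongest distal element of Myog, 44.7 kb upstream and 3310 bases wide (chr1:134243972-134247281), fell from 101 and 89.4 to 68.6 and 73.1. Its log2 difference was -0.28 ± 0.08 (adjusted p = 0.0062), and with quantile normalisation -0.52 (5.1e-05). The call was lost without TRF2KO replicate 1 (adjusted p = 0.18), with the width-weighted mean fold (0.45) and without centring (0.067).

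At Myog itself, the region over its 3′ end (chr1:134291937-134292471, summit in the last exon, 2.29 kb after the start) had folds of 10.8 and 8.82 in Control and 6.40 and 3.40 in TRF2KO. The log2 difference was -0.92 ± 0.24 (adjusted p = 0.0025; quantile adjusted p = 0.015), with the lowest value in TRF2KO 2, without which the call was lost (0.14). The Myog start-site region given above differed by -0.40 ± 0.15 (adjusted p = 0.036; quantile adjusted p = 0.051). That call was lost without Control replicate 1 (0.29), without Control replicate 2 (0.061) or without TRF2KO replicate 2 (0.32), and it is a weak one.

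The Myog window held 2 further lower regions, in its neighbours Ppfia4 and Adora1. The one in the Ppfia4 intron 17.7 kb downstream went from 11.0 and 9.18 to 5.49 and 4.77 (-0.83 ± 0.23, adjusted p = 0.0038; quantile adjusted p = 0.013; 0.052 without Control replicate 1). The one in an Adora1 intron 84.5 kb upstream went from 15.4 and 10.1 to 7.55 and 7.49 (-0.58 ± 0.21, adjusted p = 0.030; quantile adjusted p = 0.075), and lost the call without Control replicate 1 (0.42) or TRF2KO replicate 1 (0.090). The strong element 12.8 kb downstream in Ppfia4, with folds of 68.3, 59.9, 60.4 and 48.3, was lower with quantile normalisation alone (-0.29, adjusted p = 0.030). The element 7.46 kb downstream was called under neither scaling, with overlapping folds of 27.4, 17.3, 22.2 and 19.5. The 5 remaining shared regions of the window had folds of 7.82 to 17.8 and differences of -0.30 to 0.26, with no call.

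In the Myod1 window, 1 element fell as clearly as those in the Myog window. It lies 92.6 kb upstream in Otog, an inner-ear gene (chr7:46283448-46285122), and had folds of 23.9 and 20.3 in Control and 9.83 and 11.8 in TRF2KO (-0.89 ± 0.17, adjusted p = 4.5e-05; quantile adjusted p = 0.00064). The intergenic element 36.5 kb upstream (chr7:46339655-46340661) had 28.8 and 24.7 against 19.2 and 18.4 (-0.36 ± 0.14, adjusted p = 0.044; quantile adjusted p = 0.039), a call lost when any 1 of the 4 libraries was left out (0.074 to 0.20).

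**Figure D4:**
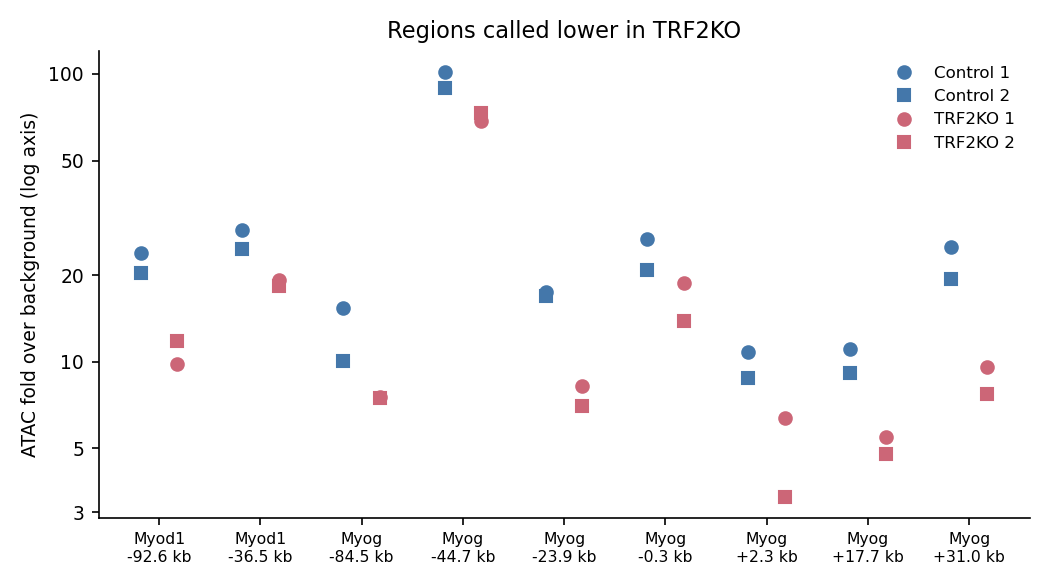
ATAC fold over background (log axis) in each of the 4 libraries at the 9 regions called lower in TRF2KO, named by locus and summit distance from the start. Both TRF2KO points lie below both Control points at every region, which the choice of regions from these same values favours. The widest gaps are 31.0 kb downstream and 23.9 kb upstream of Myog.

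Among the strong elements of Myod1, the one 34.8 kb upstream, which carries the TRF2 region printed above (chr7:46341101-46342372), had folds of 104, 84.0, 99.7 and 94.0 with overlapping groups. It was called higher with median centring (0.20 ± 0.08, adjusted p = 0.044) and stood at -0.05 with quantile normalisation (0.68). The first call was lost without Control replicate 2 (0.35), TRF2KO replicate 1 (0.084) or TRF2KO replicate 2 (0.16). The element 60.5 kb upstream had 81.9, 70.2, 71.4 and 71.7, and the one 38.7 kb upstream 69.3, 62.3, 67.5 and 70.6; neither was called. The region 26.2 kb upstream, at the non-coding gene 1700025L06Rik, had 82.8, 66.6, 58.8 and 66.7 and was lower with quantile normalisation alone (-0.31, adjusted p = 0.020). The Myod1 start-site region differed by 0.07 ± 0.07 (adjusted p = 0.55) with median centring and by -0.20 with quantile normalisation (0.041), so its direction depended on the scaling. It was also called lower with the fold averaged over its width (-0.37, adjusted p = 0.012) and on percentiles within each list (0.028).

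The TRF2-bearing repeat 55.1 kb upstream of Myod1 was weakly open, with folds of 4.37 and 5.22 in Control and 7.55 and 6.13 in TRF2KO (0.66 ± 0.24, adjusted p = 0.035; quantile adjusted p = 0.072). It rests on 18 to 32 fragments and had the lowest Control folds of the regions called at these loci. Without Control replicate 1 (0.35), TRF2KO replicate 1 (0.17) or TRF2KO replicate 2 (0.054) it was not called.

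At Myf5-Myf6, the Myf5 start-site region was called higher with median centring (0.27 ± 0.10, adjusted p = 0.030) and not with quantile normalisation (0.10, adjusted p = 0.52). The element 77.0 kb upstream of Myf5, in an intron of Ptprq (chr10:107562727-107563437), had folds of 38.2 and 31.9 in Control and 45.1 and 34.0 in TRF2KO (0.31 ± 0.11, adjusted p = 0.028; quantile adjusted p = 0.28). Both calls were lost when Control replicate 1, Control replicate 2 or TRF2KO replicate 1 was left out (adjusted p of 0.066, 0.17 and 0.068 at Myf5, and 0.052, 0.16 and 0.40 at the element), and that at Myf5 also without TRF2KO replicate 2 (0.12). The elements 13.8 kb and 17.5 kb upstream of Myf5, which lie just upstream of Myf6, were called under neither scaling. Their folds were 24.2, 22.7, 23.8 and 24.1, with overlapping groups, and 23.0, 23.6, 22.6 and 22.0, with both TRF2KO values slightly below both Control values. The Myf6 region differed by -0.28 ± 0.16 (adjusted p = 0.20; quantile adjusted p = 0.23), and by -0.13 without TRF2KO replicate 2 to -0.43 without TRF2KO replicate 1, with no call.

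Across the 11 alternatives run for single regions (10 for the region over the Myog 3′ end), 3 of the 9 lower calls and 0 of the 4 higher calls passed the threshold every time. These were the Myog elements 31.0 kb downstream and 23.9 kb upstream and the Myod1 element 92.6 kb upstream. None of these 3 overlapped a TRF2 peak of either library. Of the 9 regions called lower, 1 did, the Myog element 44.7 kb upstream, in replicate 2 alone. Among all 32 shared regions at the loci, 8 overlapped a TRF2 peak of either library. A share over the genome for peaks of either library is not given here. Counts this small do not show whether the lower regions lay away from TRF2.

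The 2 Myog elements that fell in every setting are shown as the 300 bases around the summit, capitals as above.
Myog, 31.0 kb downstream (chr1:134320790-134321089, + strand): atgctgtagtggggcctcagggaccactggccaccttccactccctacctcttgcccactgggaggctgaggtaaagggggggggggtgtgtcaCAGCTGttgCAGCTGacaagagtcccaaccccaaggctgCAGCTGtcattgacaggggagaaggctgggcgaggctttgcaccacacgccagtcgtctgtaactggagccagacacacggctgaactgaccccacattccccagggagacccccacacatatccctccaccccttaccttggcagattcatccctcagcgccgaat
Myog, 23.9 kb upstream (chr1:134265916-134266215, + strand): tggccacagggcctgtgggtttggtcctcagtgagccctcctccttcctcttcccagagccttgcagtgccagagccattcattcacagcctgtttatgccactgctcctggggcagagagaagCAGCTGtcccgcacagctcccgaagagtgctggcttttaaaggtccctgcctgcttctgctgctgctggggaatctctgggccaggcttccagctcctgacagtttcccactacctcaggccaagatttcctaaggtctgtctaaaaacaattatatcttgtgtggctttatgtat
The first holds 3 copies of CAGCTG, the E-box form that MyoD and myogenin are known to prefer, and the second holds 1. In such 300-base windows, CAGCTG was present in 7 of the 9 regions called lower at the 3 loci, in 1 of the 4 called higher and in 7 of the 19 others. Over the whole genome it was present in 60.5% of the 4606 regions called lower, 23.0% of the 11390 called higher and 35.5% of those not called. Within distal regions alone the shares were 59.5, 33.3 and 38.2%, and with quantile normalisation over all regions 62.1, 26.9 and 33.2%. The AP-1 motif was in 0 of the 9 lower regions and in 2 of the 4 higher ones, both at Myod1 and 1 of them the repeat. Over all regions of the genome it was in 13.5% of the lower, 16.1% of the higher and 17.1% of the others, and over distal regions alone in 14.1, 32.4 and 19.7%. GC content of the lower member regions (57.6%) was near that of the 19 others (55.9%). Over all regions of the genome it was 52.4% in the lower, 59.6% in the higher and 52.5% in those not called.

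Sequences able to form a G-quadruplex (at least 4 runs of 3 or more G with loops of 1 to 7, on either strand) are of interest because TRF2 is known to bind such structures. They were in 3 of the 32 summit windows: in an exon of Kcnc1 near Myod1, just before the Myog start and at the Myog 3′ end. Over the genome they were in 7.10% of distal and 19.7% of promoter windows. None of the 4 sequences printed for the TRF2 peaks holds one, nor the telomere repeat TTAGGG. With loops of up to 12 the Myod1 start sequence holds 2.

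Peak numbers told less. MACS found 24 and 24 peaks in the Control libraries at Myod1 and 18 and 20 in TRF2KO (mean 24.0 ± 0 and 19.0 ± 1.41, SD, n = 2 each). The groups did not overlap. An exact permutation test, two-sided, returned p = 0.33, and 2 against 2 libraries can reach nothing smaller. At Myf5-Myf6 the numbers were 13 and 9 against 9 and 10 (exact permutation p = 1.0), and at Myog 21 and 25 against 19 and 24 (p = 0.67). SEACR and GoPeaks, the other callers, found 0.5 and 1 peak more in TRF2KO at Myod1, so the direction depended on the caller.

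Of the 75 merged regions, 32 had a peak in all 4 libraries, against 50.2% in the genome. A peak in both Control libraries and neither TRF2KO library was found at 8, against 4.48%, and the reverse at 1, against 1.12%. All 9 were weak, with folds of 2.88 to 5.98. At Myod1 the 4 of Control lay 86.0, 69.7 and 58.3 kb upstream and 21.2 kb downstream, with the highest folds (5.98 and 5.22) at the second. At Myf5-Myf6 the single one lay 18.8 kb upstream of Myf5 (4.83 and 5.22), and at Myog 3 lay 12.9 and 4.06 kb upstream and 26.6 kb downstream (3.60 to 4.60). The region of TRF2KO alone lay 95.5 kb upstream of Myog in Mybph (4.57 and 3.18). In 6 of the 8 Control regions, GoPeaks or SEACR had an overlapping region in a TRF2KO library. GoPeaks had it only at the region 18.8 kb upstream of Myf5, and at the others it was SEACR alone. Absence from a MACS list is a threshold not passed and does not by itself show closed chromatin. Whether these sites were open in TRF2KO was not tested. The 34 remaining regions had mixed patterns and folds of 2.50 to 9.90.

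The wider network of these factors was described by a list of 34 genes, 30 of which had a start-site region in all 4 libraries. None was called lower with median centring (1 at an unadjusted p under 0.05), 13 were called higher, and with quantile normalisation 3 were lower and 1 higher. Over all shared regions of the genome, 7.48% were lower and 18.5% higher with median centring. With quantile normalisation these shares were 7.32 and 4.94%. The median difference was 0.21, or 0.00 with quantile normalisation, against the overall medians of 0.10 and 0.02.

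Among the upstream regulators, Pax7 had folds of 54.5 and 48.4 in Control and 47.8 and 50.4 in TRF2KO, and was not called. Eya1, a transcriptional coactivator, was lower with quantile normalisation alone (-0.36, adjusted p = 0.0085). The E-protein genes Tcf3 (0.33 ± 0.07) and Tcf4 (0.30 ± 0.08) were called higher with median centring and stood at 0.03 and 0.06 with quantile normalisation. Six4 (0.01 ± 0.12), which had a TRF2 region, and Tcf12 (0.16 ± 0.12) were not called.

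Of the inhibitors, Id1 (0.25 ± 0.07), Id3 (0.20 ± 0.06), Hey1 (0.39 ± 0.09) and Heyl (0.40 ± 0.08) were called higher with median centring only. Msc, a repressor that competes for E-boxes, was lower with quantile normalisation only (-0.35, adjusted p = 0.033). The cofactor genes Mef2a (0.39 ± 0.09), Mef2d (0.22 ± 0.08) and Ep300 (0.35 ± 0.08) were also called higher with median centring only. Id2 (0.13 ± 0.07), Hes1 (0.15 ± 0.07), Kat2b (0.03 ± 0.11) and Smarcd3 (-0.30 ± 0.24) were called under neither scaling.

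Of the target genes, Des (0.23 ± 0.07) and the cell cycle inhibitor Cdkn1a (0.42 ± 0.07) were called higher with median centring only, and Cdh15 was lower with quantile normalisation only (-0.20, adjusted p = 0.013). Rb1, a cell cycle regulator, was the 1 gene of the list called higher under both scalings: its folds were 32.2 and 31.1 in Control and 47.1 and 45.4 in TRF2KO (0.69 ± 0.11, and 0.57 with quantile normalisation). Mymk, needed for myoblast fusion, had weak peaks of 3.45 and 3.60 in Control and none in TRF2KO, a pattern held by 4.48% of all merged regions. Mymx, also on the list, had a peak of 4.32 in Control 2 and one of 3.89 in TRF2KO 1. Chrna1, a subunit of the acetylcholine receptor, was not called (-0.15 ± 0.14). TRF2 regions of both libraries lay within 3 kb of the start of 8 of the 34 (Six4, Id3, Hey1, Mef2d, Kat2b, Des and Cdkn1a among them), near the 23.3% of all coding genes, and IgG had none there.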

How the data were processed

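The data were peak lists of 4 ATAC-seq and 3 CUT&Tag libraries. Per the study's methods, reads were trimmed with cutadapt 4.4, aligned to mm10 with Bowtie2 (2.5.4 for ATAC, 2.4.4 for CUT&Tag, per the submitters' processing notes), cleared of duplicates with Picard 3.1.1, and peaks were called with MACS3, SEACR and GoPeaks. Whether ATAC reads were shifted for the transposase is not given in the sources used here, so summits may be off by a few bases. The fold ratio and the -log10 p and q of each MACS peak were deposited by the authors. The deposited MACS score and SEACR signal values were not used in tests. GoPeaks and consensus regions were used for positions only, and the deposited DiffBind score was not used; the authors' consensus lists name a genotype, not a library.

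Peaks were merged where they shared at least 1 bp, and a region within 3 kb of an annotated start was called a promoter, otherwise distal. The start-site region of a gene is the merged ATAC region over its start or the nearest within 3 kb. In each library, the fold of a region is that of its highest peak there. The summit given for a region is that of the first library with a peak, Control before TRF2KO. In a wide region, the folds of different libraries may therefore come from different summits. Because the files hold ratios and no counts, limma 3.58.1 (R 4.3.3; lmFit, eBayes with trend, Benjamini-Hochberg, no pseudocount) was fitted to log2 folds of all regions with a peak in all 4 libraries, and errors printed with ± in differences are its standard errors (n = 2 per group). On simulated data it was checked before use. A fold depends on a library's background and on its share of fragments in peaks, so differences are relative within a library. Fragment numbers came from the fold and the background, which was constant within each ATAC library; read totals are unknown. Python 3.11.15, scipy 1.17.1 and pysam 0.24.0 were used for the rest.

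Members and gene lists were chosen with earlier results of these data known. Regions named in full were the start-site regions, distal regions with a TRF2 peak in both libraries, the 3 distal regions of each locus with the highest Control fold, every region called by limma and every region found in 1 genotype alone; from the pathway list, genes called or with TRF2 at the promoter and otherwise the 2 of each group with the highest Control fold; 1 gene counted in that list is not reported here by name. Msc, Mymk, Mymx and the regions 26.2 kb upstream of Myod1 and 12.8 kb downstream of Myog were named after their values were seen. Alternatives were other callers and thresholds, windows and scalings, a replicate block and leaving out each library.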

Additional observations from a re-analysis of the deposited data

How the results depend on the processing

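Peak number differences (TRF2KO minus Control) changed with the caller. At Myod1 the difference was -5 with MACS, 0.5 with SEACR, 1 with GoPeaks, -3 for MACS peaks found by all 3 callers and -1 in the narrower window (-6 to -4 when a library was left out; in fits, the lone library of a group is then assumed to vary like the other group). At Myf5-Myf6 it was -1.5, 2 with SEACR and 1.5 for peaks found by all 3 callers (-3.5 to 0.5 with a library left out), and at Myog -1.5 (-4 to 1). Regions called lower numbered 9, and 5 when every merged region was fitted with absent peaks set to the lowest fold (5 to 7 with a library left out). Regions called higher numbered 4, and 0 with quantile normalisation, 0 with no centring, 0 on percentiles within each list, 0 with the width-weighted fold and 2 with every merged region (1 to 2 with a library left out). Over the genome the split of calls, lower to higher, was 4606 to 11390, 4511 to 3044 with quantile normalisation, 4231 to 823 with no centring and 6811 to 515 on percentiles; leaving out a library gave 10345 to 13238 calls in place of 15996. The Myod1 start-site difference of 0.07 was -0.20 with quantile normalisation, -0.081 with no centring, -0.37 with the width-weighted fold and -1.23 percentile points, and was called lower in all of these but that with no centring. That of Myf5, 0.27, was no longer called at 0.10 (quantile), 0.12 (no centring) and 0.27 (width-weighted), and was -0.33 percentile points (0.24 to 0.30 with a library left out). That of Myog, -0.40, was not called at -0.45 (quantile), -0.55 (no centring) and -0.40 (every merged region), and ran from -0.56 to -0.24 with a library left out; the cause of these changes was not tested. Single regions with no stable call changed sign: 60.5 kb upstream of Myod1 at -0.16 (quantile), -0.084 (no centring) and -1.79 percentile points, 38.7 kb upstream at -0.725 points, 34.8 kb upstream at -0.053 (quantile) and -0.69 points, 13.8 kb upstream of Myf5 at -1.13 points and -0.042 (width-weighted), 17.5 kb upstream at -0.061 (no centring), -2.23 points and -0.023 (without Control replicate 1; up to 0.19 without Control replicate 2), and 7.46 kb downstream of Myog at -0.064 (no centring), -2.43 points and -0.16 (without Control replicate 2; up to 0.32 without Control replicate 1). Of the other alternatives for single regions, 119 left the call and its direction, 41 lost the call and 1 gained it.

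Regions found in all 4 libraries numbered 32, 12 with SEACR and 14 in both deposited consensus lists. Those of Control alone numbered 8, 0 with SEACR, 4 with GoPeaks and 3 in the consensus; those of TRF2KO alone 1, 0 with GoPeaks, 0 at a -log10 q of at least 5, 6 with 250-bp summit windows and 0 in the consensus. TRF2 regions numbered 3, 10 with a peak in either library and 1 at a -log10 q of at least 5 in both. Counted in a single library, with peaks shared with the other included, they numbered 5 in replicate 1 and 8 in replicate 2. Pathway genes with a TRF2 region numbered 8, and 5 within 1 kb. Summit windows with a G-quadruplex motif numbered 3, and 7 with loops of up to 12. The ATAC libraries share replicate numbers, and deviations of same-numbered libraries from their group means correlated at 0.013 after median centring. Same-numbered libraries thus shared no visible pattern across regions. Centring removes shifts of a whole library, so a shared preparation cannot be judged from this value. With the replicate block, 16031 regions were called in place of 15996, and at the loci 9 lower and 3 higher. CUT&Tag peaks of 4 to 15 fragments limit what can be said of TRF2 at these genes.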
